A study of Mus musculus with 12 samples.

Results

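The 5 receptors described here are Gpr132, Gpr65, Gpr183, Gpr35 and Gpr171, G protein-coupled receptors that are grouped as sensors of protons, lipids and metabolites. They were chosen by gene symbol in the platform annotation, with the brightest probe set per gene over all 12 arrays, out of 19938 genes measured, and each of the 5 had a single probe set (10402800 for Gpr132, 10397645 for Gpr65, 10422496 for Gpr183, 10348645 for Gpr35 and 10498345 for Gpr171). They were put forward with earlier results of these data known, and which comparison drew them is not recorded, so every difference and adjusted p of theirs is given as a description and not as independent evidence. The arrays measured RNA of macrophages sorted from the skin of untreated mice, labelled B6 wild-type SPF (kept free of specific pathogens). The 4 groups were MHC-II-positive melanophages, MHC-II-negative melanophages, MHC-II-positive macrophages and MHC-II-negative macrophages, with 3 arrays each. Melanophages are macrophages that have taken up melanin. All 4 groups carried CD11b and CD64 and lacked CD24, CCR2 and Ly6C at the surface, per the labels. Melanophages were taken at high side scatter, and the labels of the macrophages give both a high and a low side scatter. Nothing in the labels ties an array to 1 animal or to a pool, so the spread between arrays may be technical.

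Receptors of this kind sit in the plasma membrane and pass the presence of a small ligand to heterotrimeric G proteins. Gpr65 (also called TDAG8) responds to extracellular protons through histidines and raises cyclic AMP, and it is best known in lymphocytes and macrophages. Gpr132 belongs to the same branch and also responds to lysophospholipids and oxidised fatty acids. Gpr183 (EBI2) is the receptor for a dihydroxylated cholesterol and guides the migration of B cells, T cells and dendritic cells. Kynurenic acid, a product of tryptophan breakdown, is among the ligands put forward for Gpr35. Gpr171 lies in a cluster of P2Y-like receptor genes, and the ligand put forward for it is BigLEN, a neuropeptide, so that of the 5 it is the least suited to the name of a metabolite sensor.

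Promoters are printed for 3 of the receptors that were higher in MHC-II-positive cells and for Gpr183, which did not pass in any comparison, so that their start regions can be compared. RefSeq promoter windows of assembly GRCm38.p6, each reaching from 250 bases before to 50 bases after a transcription start, were found for 4 of the 5 receptors, in 5 windows. Gpr171 had no entry. Letters in capitals mark AGGAAG and TGACG on either strand. AGGAAG is a longer form of GGAA, the core bound by ETS factors, and TGACG is the core bound by CREB family factors.
Gpr132, chr12:112860867-112861166, minus strand: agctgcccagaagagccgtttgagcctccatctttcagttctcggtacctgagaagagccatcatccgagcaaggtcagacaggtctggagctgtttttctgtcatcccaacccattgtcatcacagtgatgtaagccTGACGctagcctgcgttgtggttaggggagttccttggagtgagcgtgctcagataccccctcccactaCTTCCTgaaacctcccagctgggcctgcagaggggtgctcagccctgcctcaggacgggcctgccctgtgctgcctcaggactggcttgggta
Gpr65, chr12:98268385-98268684, plus strand: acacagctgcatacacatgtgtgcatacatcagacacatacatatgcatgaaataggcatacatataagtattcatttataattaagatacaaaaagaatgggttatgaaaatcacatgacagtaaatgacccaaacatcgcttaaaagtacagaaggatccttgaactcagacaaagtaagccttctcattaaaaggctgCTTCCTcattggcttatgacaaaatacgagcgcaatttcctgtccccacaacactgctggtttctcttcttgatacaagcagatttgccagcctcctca
Gpr35, chr1:92978653-92978952, plus strand: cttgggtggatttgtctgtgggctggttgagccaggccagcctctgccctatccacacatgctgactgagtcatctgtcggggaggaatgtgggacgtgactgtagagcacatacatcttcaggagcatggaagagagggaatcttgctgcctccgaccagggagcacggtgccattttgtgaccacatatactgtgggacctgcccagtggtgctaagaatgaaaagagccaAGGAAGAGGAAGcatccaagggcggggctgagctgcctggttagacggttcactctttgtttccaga
Gpr183, chr14:121965144-121965443, minus strand: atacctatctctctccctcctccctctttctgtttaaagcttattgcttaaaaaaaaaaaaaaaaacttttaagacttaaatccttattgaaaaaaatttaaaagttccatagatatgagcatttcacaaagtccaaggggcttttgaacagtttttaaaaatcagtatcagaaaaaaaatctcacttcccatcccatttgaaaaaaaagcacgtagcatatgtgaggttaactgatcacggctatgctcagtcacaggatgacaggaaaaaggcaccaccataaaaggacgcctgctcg
AGGAAG lay 43 bases before the start in Gpr132 and 49 bases before it in Gpr65. In the Gpr35 window shown it lay 17 and 11 bases before the start, and these 2 matches follow each other directly. The CREB core was found once among these windows, 112 bases before the start of Gpr132. Neither AGGAAG nor TGACG was found in the Gpr183 window or in the other Gpr35 window. The shorter GGAA was not marked and also occurs in the Gpr183 window. Of 32851 promoter windows of the same length, 35.4% hold AGGAAG and 20.8% the CREB core, so matches of these short letters are common. They describe the letters only.

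Expression is given on the log2 scale of the deposited values, on which a difference of 1 is a doubling, and levels of different genes are not compared because each probe set has its own brightness. Array medians over all probe sets lay between 2.97 and 3.08, and values near them are close to the floor of the array. No pair of arrays among 66 held identical values, and arrays correlated with the other 2 of their group at a mean r between 0.972 and 0.988. Replicate 1 of the MHC-II-negative macrophages and replicate 3 of the MHC-II-positive macrophages stood apart: their differences from the other arrays of their group had an SD over all genes of 0.41 and 0.36, against 0.24 to 0.31 on the other 10 arrays. Of 9 measured macrophage markers all exceeded the array medians. Between the MHC-II classes, averaged over cell kind, 0 of them passed an adjusted p under 0.05 with limma, where 0.762% of all genes passed. At an unadjusted p under 0.05 it was 3 of them, Itgam and Fcgr1 higher and C1qc lower, against 9.23% of all genes. The summed level of the 9 markers was set by the brightest of them. It ran from 13.23 to 13.36 in MHC-II-positive and from 13.32 to 13.48 in MHC-II-negative melanophages. In macrophages it ran from 13.25 to 13.34 in MHC-II-positive and from 13.27 to 13.34 in MHC-II-negative cells. The MHC-II gene H2-Eb1 averaged 9.70 ± 0.43 in MHC-II-positive and 5.64 ± 0.11 in MHC-II-negative melanophages, and 10.33 ± 0.19 in MHC-II-positive and 6.41 ± 0.52 in MHC-II-negative macrophages (SD, n = 3), which is the sort itself.

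Between the MHC-II classes, averaged over cell kind, Gpr132, Gpr65, Gpr35 and Gpr171 were higher in MHC-II-positive cells and Gpr183 did not pass. The difference of Gpr171 was 6.10-fold (95% interval of the log2 difference 1.61 to 3.61) and may be understated, since some of its arrays lay near the floor. Those of Gpr132, Gpr65 and Gpr35 were 2.25-fold, 1.59-fold and 1.44-fold. With limma, 4 of the 5 receptors passed an adjusted p under 0.05 over all genes, all of them higher, where 0.762% of all genes passed (0.632% higher and 0.13% lower, and 9.23% in either direction at an unadjusted p under 0.05). Since the receptors were chosen with these results in view, nothing is read from that count. The median difference of the 5 was 0.67, against -0.02 over all genes. Without both macrophage arrays that stood apart, Gpr132 (1.22, adjusted p = 0.0138) and Gpr35 (0.61, adjusted p = 0.0127) passed, and Gpr65 (0.60, adjusted p = 0.111) and Gpr171 (2.16, adjusted p = 0.0821) did not. In sorted bulk RNA, fewer cells of a type and less RNA per cell cannot be told apart.

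**Figure D1:**
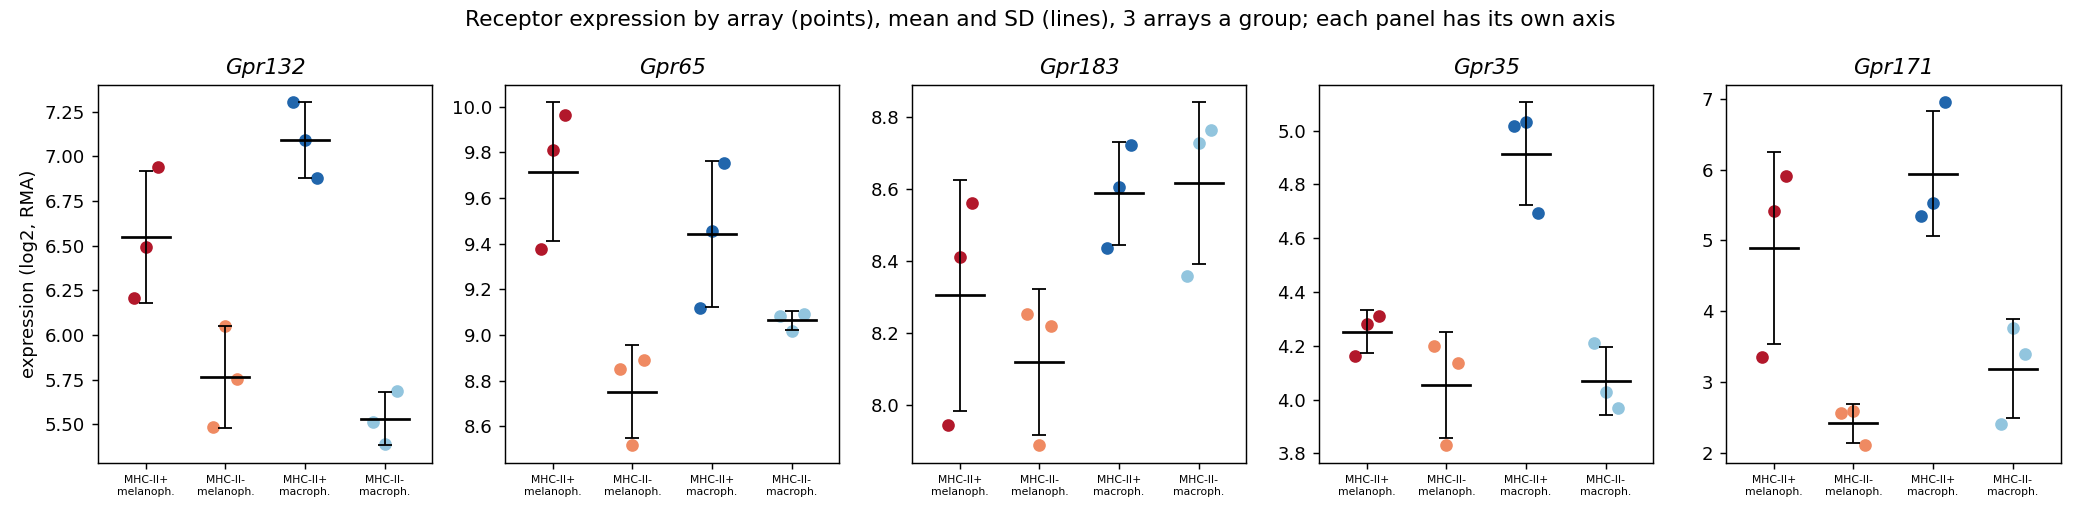
Log2 expression (vertical axis, RMA values, a separate scale in each panel) of the 5 receptors in MHC-II-positive and MHC-II-negative melanophages and macrophages; points are arrays, bars the mean and SD of 3. Gpr132 and Gpr171 are higher in both MHC-II-positive groups, Gpr35 stands out in MHC-II-positive macrophages at 4.91, and the groups of Gpr183 lie within 0.50 of each other.

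Gpr132, the lipid- and acid-responsive receptor, had 6.21, 6.49 and 6.94 in melanophages with MHC-II, against 5.48, 6.05 and 5.75 in melanophages without. It had 7.30, 7.09 and 6.88 in macrophages with MHC-II, against 5.51, 5.39 and 5.69 in macrophages without. Every MHC-II-positive array thus lay above every MHC-II-negative array of its cell kind, while the MHC-II-positive groups of the cell kinds overlapped, as did the MHC-II-negative groups. The averaged difference was 1.17 ± 0.14 (SE, adjusted p = 0.00278), with 1.56 ± 0.20 in macrophages (adjusted p = 0.00606) and 0.78 ± 0.20 in melanophages (adjusted p = 0.313). The averaged difference and that in macrophages passed in each of the 12 fits that left out 1 array. The difference in melanophages passed in none of them (lowest adjusted p = 0.204).

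Gpr65, the cyclic AMP-raising proton sensor, had 9.37, 9.81 and 9.96 in melanophages with MHC-II, against 8.85, 8.52 and 8.89 in melanophages without. In macrophages it had 9.12, 9.46 and 9.75 with MHC-II, against 9.08, 9.02 and 9.09 without. The groups did not overlap within either cell kind, but in macrophages the nearest arrays, at 9.12 and 9.09, almost met. The order of the means ran from MHC-II-positive melanophages (9.72 ± 0.30) over MHC-II-positive macrophages (9.44 ± 0.32) and MHC-II-negative macrophages (9.06 ± 0.04) to MHC-II-negative melanophages (8.75 ± 0.20, SD, n = 3), and of neighbours in that order only the leading pair overlapped. The averaged difference was 0.67 ± 0.13 (adjusted p = 0.0467). It was 0.96 ± 0.18 in melanophages (adjusted p = 0.101) and 0.38 ± 0.18 in macrophages (adjusted p = 0.667). The averaged call was lost in 10 of 12 fits without 1 array (highest adjusted p = 0.128) and held without replicate 1 of the MHC-II-positive melanophages (0.0224) or of the MHC-II-positive macrophages (0.0254).

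Gpr35, with kynurenic acid as a proposed ligand, had 5.02, 5.03 and 4.69 in macrophages with MHC-II, against 4.21, 4.03 and 3.97 in macrophages without. Melanophages stayed low in both classes, with 4.16, 4.28 and 4.31 with MHC-II, against 4.20, 3.83 and 4.14 without. All 3 arrays of MHC-II-positive macrophages therefore lay above the other 9 arrays, which overlapped among themselves. The difference was 0.85 ± 0.12 in macrophages (1.80-fold, adjusted p = 0.0148) and 0.20 ± 0.12 in melanophages (adjusted p = 0.95), and 0.52 ± 0.09 averaged (adjusted p = 0.0231). The difference between these differences was -0.65 ± 0.18 and did not pass (unadjusted p = 0.00383, adjusted p = 1), so the cell kinds are not shown to differ in it. The averaged call was lost in 7 of 12 fits without 1 array (highest adjusted p = 0.0713) and held without replicates 1 or 2 of MHC-II-negative melanophages, replicate 1 of MHC-II-positive melanophages, replicate 1 of MHC-II-negative macrophages or replicate 3 of MHC-II-positive macrophages. The macrophage call was lost without MHC-II-positive macrophages replicate 1 (0.0716) or 2 (0.0708), without MHC-II-negative macrophages replicate 2 (0.0695) or 3 (0.0818), and in a fit of the 6 macrophage arrays alone (0.137).

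Gpr171, the receptor assigned to the BigLEN peptide, varied most among arrays. It had 3.35, 5.41 and 5.91 in melanophages with MHC-II, against 2.56, 2.59 and 2.11 in melanophages without. In macrophages it had 5.34, 5.53 and 6.95 with MHC-II, against 2.41, 3.76 and 3.40 without. Groups of the MHC-II classes did not overlap within either cell kind, and MHC-II-positive melanophages replicate 1 lay far below its group mates, under the highest MHC-II-negative macrophage array. All 3 arrays of MHC-II-negative melanophages and 1 of MHC-II-negative macrophages lay at or below the array medians, so the difference may be understated. It was 2.61 ± 0.45 averaged (adjusted p = 0.0267), 2.47 ± 0.64 in melanophages (adjusted p = 0.327) and 2.75 ± 0.64 in macrophages (adjusted p = 0.149). Without MHC-II-positive melanophages replicate 1 all 3 passed, at 2.99 averaged (0.00338), 3.24 in melanophages (0.0471) and 2.75 in macrophages (0.0416). The averaged call also held without MHC-II-positive macrophages replicate 1 (0.0402) or 3 (0.0466) or MHC-II-negative macrophages replicate 2 (0.0475), and was lost in the other 8 fits without 1 array (highest adjusted p = 0.0838).

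Gpr183, the oxysterol receptor, had 7.95, 8.41 and 8.56 in melanophages with MHC-II, against 8.25, 7.89 and 8.22 in melanophages without. In macrophages it had 8.43, 8.61 and 8.72 with MHC-II, against 8.36, 8.73 and 8.76 without. The MHC-II classes overlapped in both cell kinds. The averaged difference was 0.08 ± 0.12 (95% interval -0.19 to 0.35, adjusted p = 0.889). Its largest difference lay between the cell kinds instead, where MHC-II-negative melanophages were below MHC-II-negative macrophages on every array (-0.50 ± 0.17, unadjusted p = 0.0166, adjusted p = 0.715).

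**Figure D2:**
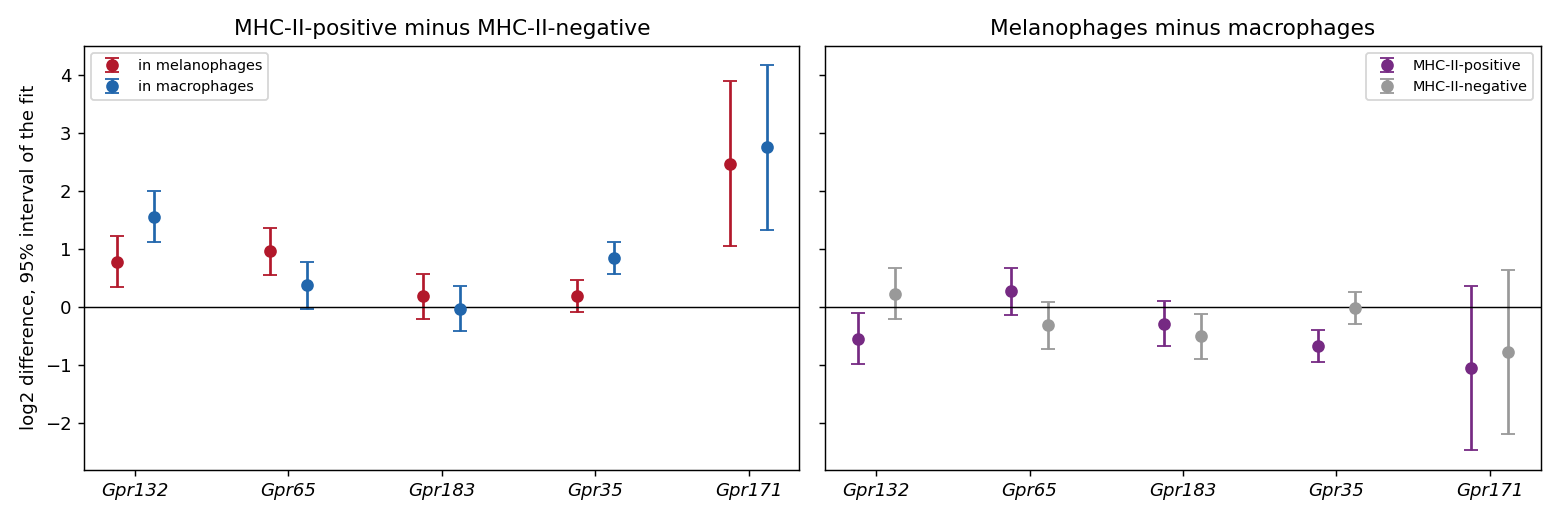
Log2 differences with 95% intervals of the fit (vertical axis) for each receptor, MHC-II-positive minus MHC-II-negative on the left and melanophages minus macrophages on the right. Gpr171 has the widest intervals, and Gpr132 and Gpr35 have larger MHC-II differences in macrophages (1.56 and 0.85) than in melanophages (0.78 and 0.20), a gap that did not pass its own test.

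Within the cell kinds, 0 of the 5 receptors passed with limma in melanophages (3 at an unadjusted p under 0.05) and 2 passed in macrophages, Gpr132 and Gpr35, where 0.211% and 0.341% of all genes passed. At an unadjusted p under 0.05 it was 5.7% of genes in melanophages and 7.83% in macrophages. Arrays did not overlap between the MHC-II classes, with the MHC-II-positive ones higher, for Gpr132, Gpr65 and Gpr171 in both cell kinds and for Gpr35 in macrophages. The background for such a gap was 5.12% of genes in melanophages, 4.96% in macrophages and 1.11% in both. The difference between the MHC-II differences of melanophages and macrophages (the interaction) passed for 0 of the 5 with limma (3 at an unadjusted p under 0.05), and for 0% of all genes (4.11% at an unadjusted p under 0.05). Its estimates were -0.78 ± 0.28 for Gpr132 (unadjusted p = 0.0192) and 0.59 ± 0.26 for Gpr65 (unadjusted p = 0.0452), in opposite directions, both at an adjusted p of 1. For Gpr171 it was -0.28 ± 0.90 and for Gpr183 0.21 ± 0.25.

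Between melanophages and macrophages, averaged over MHC-II class, 0 of the 5 receptors passed with limma (2 at an unadjusted p under 0.05), where 0.12% of all genes passed (7.52% at an unadjusted p under 0.05). All 5 estimates lay below 0, and their median was -0.34, against 0.01 over all genes. The differences were -0.39 ± 0.12 for Gpr183 (adjusted p = 0.436), -0.34 ± 0.09 for Gpr35 (adjusted p = 0.292), -0.91 ± 0.45 for Gpr171 (adjusted p = 0.707), -0.16 ± 0.14 for Gpr132 (adjusted p = 0.857) and -0.02 ± 0.13 for Gpr65 (adjusted p = 0.985). Among MHC-II-positive cells 0 of the 5 passed with limma (2 at an unadjusted p under 0.05), where 0.015% of all genes passed (6.3% at an unadjusted p under 0.05). Gpr35 came nearest there, 1.58-fold lower in MHC-II-positive melanophages with no overlap of arrays (-0.66 ± 0.12, unadjusted p = 0.000284, adjusted p = 0.183), and gaps of that direction were seen for 4.91% of genes. Among MHC-II-negative cells 0 of the 5 passed with limma (1 at an unadjusted p under 0.05, Gpr183), where 0.00502% of all genes passed (5.65% at an unadjusted p under 0.05). Arrays of MHC-II-negative melanophages lay wholly below those of MHC-II-negative macrophages for Gpr183 and Gpr65, a gap seen for 3.91% of genes. The Gpr65 estimates of the classes lay on opposite sides of 0, at 0.27 ± 0.18 in MHC-II-positive and -0.31 ± 0.18 in MHC-II-negative cells.

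**Figure D3:**
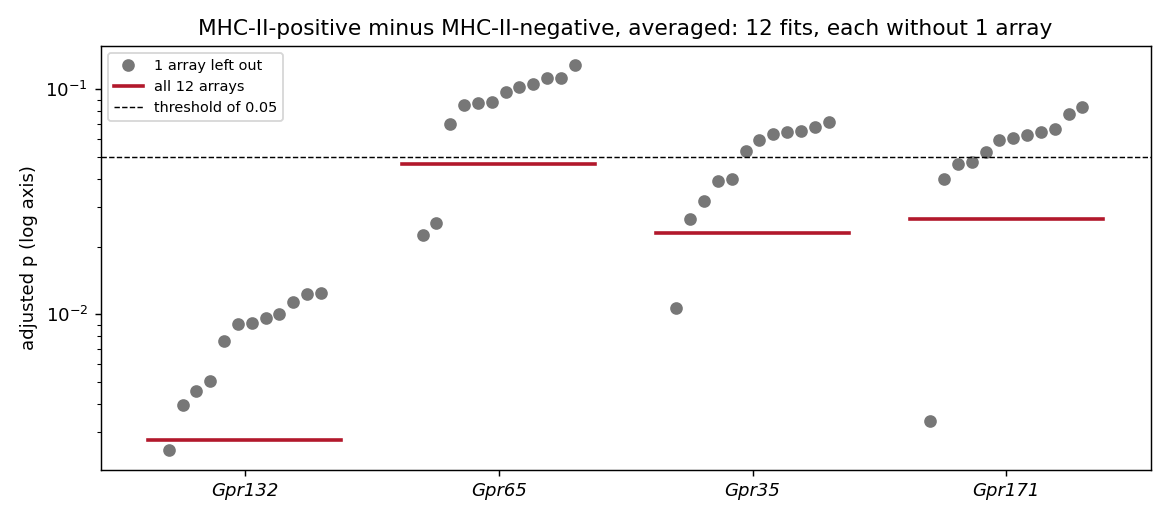
Adjusted p (vertical log axis) of the MHC-II difference averaged over cell kind for the 4 receptors that passed; the red line is the fit of all 12 arrays, each point a fit without 1 array, sorted, and the dashed line the threshold of 0.05. Gpr132 stays under the threshold throughout (highest 0.0125), while Gpr65, Gpr35 and Gpr171 cross it in 10, 7 and 8 of 12 fits.

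Of 29 other receptors of protons, metabolites, lipids and nucleotides 1 passed between the MHC-II classes, where 0.762% of all genes passed, and nothing is read from that count. Besides Gpr65 and Gpr132, the proton-sensing receptors measured included Gpr4, an endothelial proton sensor, which stayed at or below the array medians on all 12 arrays (-0.01 ± 0.07, adjusted p = 0.985). Of 21 other measured receptors for metabolites and lipids P2ry10 rose, 0 fell and 20 did not pass, with a median of 0.00. Of 7 measured P2Y-like receptors 0 passed with limma (2 at an unadjusted p under 0.05, both lower), with a median of -0.07. Together with Gpr4, 12 of these 29 receptors stayed at or below the array medians on every array, as did 7163 of the 19938 genes.

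P2ry10, a receptor for lysophosphatidylserine known from lymphocytes, had 4.01, 6.08 and 6.42 in melanophages with MHC-II, against 3.15, 3.31 and 2.40 in melanophages without. In macrophages it had 5.28, 6.05 and 6.86 with MHC-II, against 3.14, 3.44 and 3.36 without. The averaged difference was 2.65 ± 0.41 (adjusted p = 0.0141). The MHC-II-negative arrays lay at or little above the array medians, so that this difference, like that of Gpr171, may be understated. It passed in each of 12 fits without 1 array and was lost only without both macrophage arrays that stood farthest from their group mates (0.0639), among the 22 alternatives without a block. Against that direction, P2ry13, a receptor for ADP, differed by -0.74 ± 0.23 (adjusted p = 0.279), Gpr34, another lysophosphatidylserine receptor, by -0.63 ± 0.20 (adjusted p = 0.32) and the ADP receptor P2ry12 by -0.47 ± 0.20 (adjusted p = 0.512). Gpr84, a receptor for medium-chain fatty acids, differed by 0.60 ± 0.35 (adjusted p = 0.656).

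**Figure D4:**
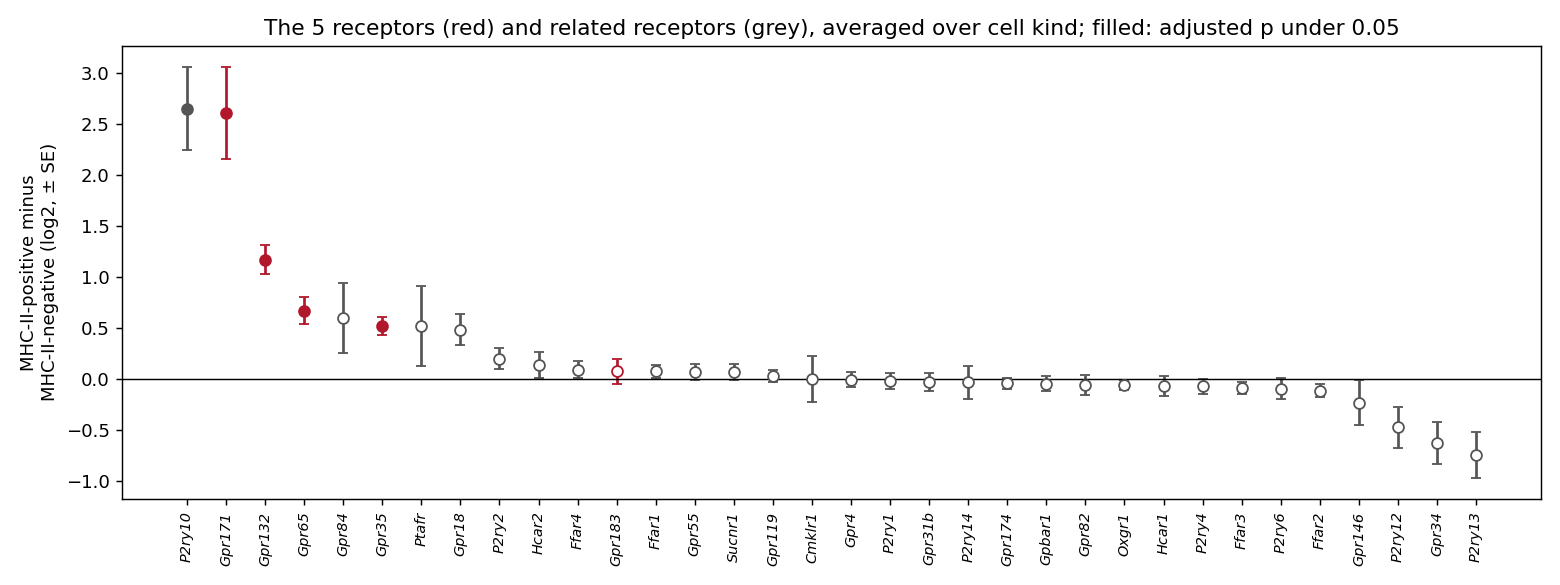
MHC-II-positive minus MHC-II-negative log2 difference averaged over cell kind, with SE (vertical axis), for the 5 receptors in red and 29 related receptors in grey, sorted; filled points passed an adjusted p of 0.05. P2ry10 at 2.65 stands beside Gpr171 at 2.61, and most of the others lie close to 0.

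Over the 12 arrays, the genes nearest in pattern were sought for the 2 receptors whose group means spanned at least 1, Gpr132 and Gpr171, as the smallest root mean square difference after centring each gene on its own mean. For Gpr171 these were P2ry10 (0.36), the decoy interleukin-1 receptor Il1r2 (0.39) and the mast cell and myeloid membrane protein gene Mcemp1 (0.62). P2ry10 and Il1r2 shared the low value of Gpr171 in MHC-II-positive melanophages replicate 1, with 4.01 and 4.72 there, against 6.08 and 6.42 for P2ry10 and 6.58 and 6.89 for Il1r2 in its group mates. Mcemp1 had 5.27 on that array, against 5.48 and 5.75 in its group mates. For Gpr132 the nearest genes were the inflammasome sensor Nlrp3 (0.29), Gfpt1, the enzyme that opens the hexosamine pathway (0.30), and the signalling adaptor Traf1 (0.30). Their own MHC-II differences were 1.06 ± 0.12 for Nlrp3, 1.12 ± 0.10 for Gfpt1 and 1.18 ± 0.08 for Traf1, against 1.17 ± 0.14 for Gpr132. The measure picks genes that move alike on these same arrays, so a shared dip or a like MHC-II difference is favoured by the choice itself. The measure says nothing of shared control.

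**Figure D5:**
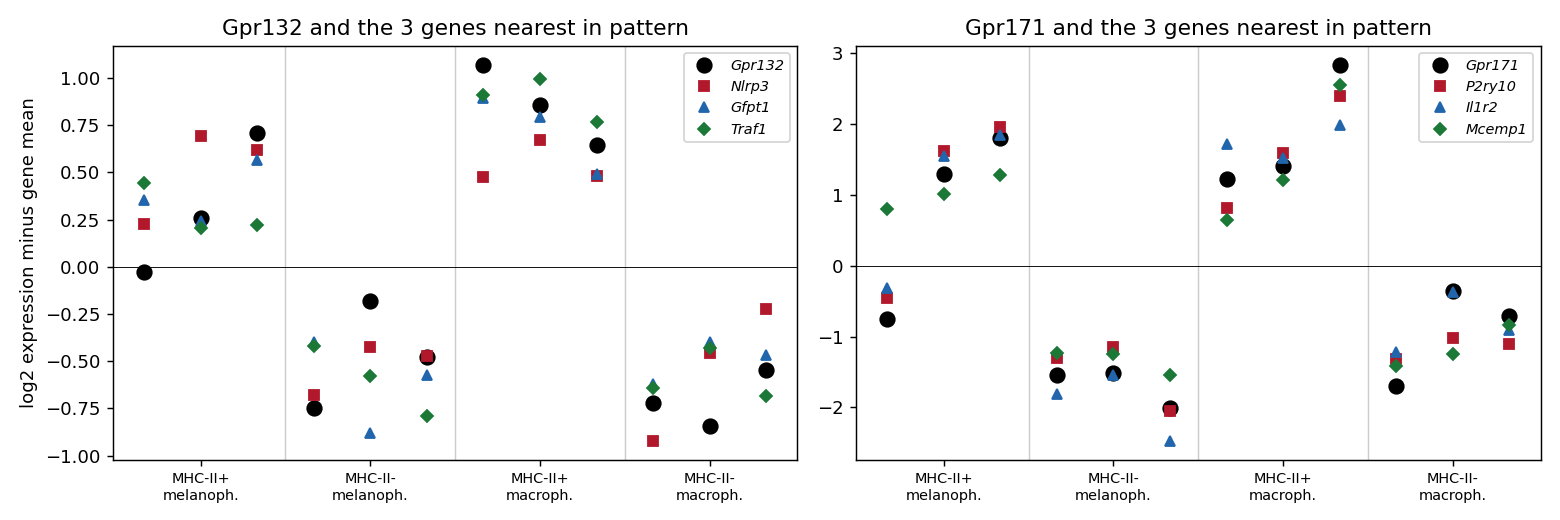
Log2 expression minus each gene's mean (vertical axis) on the 12 arrays, 3 per group, for Gpr132 and Gpr171 (black) and the 3 genes nearest to each. The points of Gpr171, P2ry10 and Il1r2 dip together on the leftmost array, MHC-II-positive melanophages replicate 1. Mcemp1 lies at 0.80 there, against 1.01 and 1.29 in its group mates.

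Genes around the ligands were read against the 0.762% of all genes that passed, a share at which lists this short hold few calls or none. Of 4 enzymes that make or break the Gpr183 ligand 0 passed with limma (1 at an unadjusted p under 0.05). That was Ch25h, which hydroxylates cholesterol in the first step towards the ligand. It had 5.20, 4.43 and 4.41 in melanophages with MHC-II, against 5.20, 7.14 and 5.90 in melanophages without, and 4.77, 5.25 and 5.26 in macrophages with MHC-II, against 6.58, 6.50 and 6.24 in macrophages without. Every MHC-II-positive array lay below the MHC-II-negative arrays of its cell kind, in melanophages barely so at replicate 1 of both groups, and the averaged difference was -1.38 ± 0.29 (adjusted p = 0.0689, and between 0.0184 and 0.173 over 22 alternatives without a block, of which 6 passed). Cyp7b1, which completes the ligand, differed by 0.09 ± 0.07 (adjusted p = 0.731) and Hsd3b7, which degrades it, by -0.03 ± 0.13 (adjusted p = 0.968).

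Of 12 measured genes of the kynurenine pathway around kynurenic acid 0 passed with limma (2 at an unadjusted p under 0.05). The smallest adjusted p was that of kynureninase, Kynu (0.84 ± 0.21, adjusted p = 0.137). Ido1, which starts the pathway, differed by -0.01 ± 0.07 (adjusted p = 0.986). Of 3 measured genes of the BigLEN precursor and its processing 0 passed with limma (0 at an unadjusted p under 0.05), and the precursor gene Pcsk1n differed by -0.03 ± 0.09. Of 10 measured genes of proton and lactate handling the lactate and proton exporter Slc16a3 rose, 0 fell and 9 did not pass. The share of all genes that passed was 0.762%, and the median of the list was -0.04, with 4 estimates above 0 and 6 below. Slc16a3 had 5.64, 5.19 and 5.44 in melanophages with MHC-II, against 4.74, 4.86 and 4.75 in melanophages without, and 5.54, 5.42 and 5.64 in macrophages with MHC-II, against 5.17, 4.53 and 4.90 in macrophages without. Its difference was 0.65 ± 0.11 (1.57-fold, adjusted p = 0.0241), and the call was lost in 8 of 12 fits without 1 array (highest adjusted p = 0.0751), holding without MHC-II-negative macrophages replicates 1 or 2, replicate 2 of the MHC-II-positive melanophages or replicate 2 of the MHC-II-positive macrophages, and with another quantile normalization it was 0.171.

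Downstream of the receptors, a list was read of G proteins, cyclases, cyclic AMP-dependent kinase subunits, phosphodiesterases, RGS proteins, receptor kinases, arrestins and the transcription factor genes Crem and Creb1. Of its 36 measured genes Crem rose, 0 fell and 35 did not pass, with a median of 0.06, where 0.762% of all genes passed. Crem, a cyclic AMP-responsive transcription factor gene, had 7.22, 6.94 and 7.09 in melanophages with MHC-II, against 6.52, 6.38 and 6.36 in melanophages without. In macrophages it had 6.76, 6.98 and 7.36 with MHC-II, against 6.41, 6.16 and 6.20 without. The groups did not overlap in either cell kind, the difference was 0.72 ± 0.10 (1.65-fold, adjusted p = 0.00775), and it passed in all 22 alternatives without a block. The cyclic AMP-degrading phosphodiesterase Pde4b missed the threshold (0.44 ± 0.09, adjusted p = 0.0508).

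The neighbours of the receptors on their chromosomes were looked at as well, taking the 2 protein-coding genes on each side in RefSeq order, a choice made after values were seen. Of 20 neighbours 18 were measured and 0 passed with limma for the MHC-II difference averaged over cell kind, where 0.762% of all genes passed. At that share a list this short holds few calls or none. P2ry14, next to Gpr171 in the P2Y-like cluster on chromosome 3, differed by -0.03 ± 0.16, and Med12l, within which Gpr171 lies, by -0.04 ± 0.05. Gpr18, next to Gpr183 on chromosome 14, differed by 0.48 ± 0.15 (adjusted p = 0.298).

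Some markers of other cell types passed between the MHC-II classes too, where 0.762% of all genes passed (0.632% higher and 0.13% lower). Of 9 dendritic cell markers Ccr7 (1.97 ± 0.27) and Cd207 (1.20 ± 0.15) rose, 0 fell and 3 never exceeded the array medians, among them Xcr1 and Itgae. Of the 9 estimates 8 lay above 0 and 1 below, with a median of 0.38 (4 at an unadjusted limma p under 0.05, all higher). Cd24a, whose protein the gate excluded, differed by 1.54 and did not pass (limma adjusted p = 0.0679). Cd207 had 3.16, 3.39 and 2.95 in melanophages with MHC-II, against 2.76, 2.71 and 2.95 in melanophages without, all near the array medians. In macrophages it had 5.46, 4.61 and 5.43 with MHC-II, against 2.93, 3.24 and 3.22 without. Its difference was 0.36 ± 0.21 in melanophages and 2.04 ± 0.21 in macrophages (adjusted p of the interaction = 0.966). Between the cell kinds, 1 of the 9 dendritic cell markers passed with limma, lower in melanophages. This held averaged over MHC-II class and among MHC-II-positive cells, where 0.12% and 0.015% of all genes passed. The summed level of the list ran from 6.98 to 7.80 in MHC-II-positive and from 6.21 to 6.44 in MHC-II-negative melanophages, and from 7.69 to 8.42 in MHC-II-positive and from 6.46 to 6.65 in MHC-II-negative macrophages. Of 4 measured monocyte markers Ccr2 (3.23 ± 0.20), whose protein the gate also excluded, and Fn1 (1.35 ± 0.15) rose and 0 fell. Of the 4 estimates 3 lay above 0 and 1 below, with a median of 0.68. Summed levels were 6.86 to 7.41 in MHC-II-positive and 4.83 to 5.09 in MHC-II-negative melanophages. In macrophages they were 7.13 to 8.03 in MHC-II-positive and 5.12 to 5.26 in MHC-II-negative cells. Of 10 measured T cell and innate lymphoid markers Il7r (1.94 ± 0.25) and Cd2 (1.37 ± 0.13) rose, 0 fell and 8 did not pass, with 5 estimates above and 5 below 0 and a median of -0.02. Cd4 (-0.63 ± 0.25, adjusted p = 0.448) and Thy1 (-0.62 ± 0.26, adjusted p = 0.507) lay on the other side of 0. The T cell receptor chains Cd3d and Cd3g never exceeded the array medians, while Cd3e reached 3.70 at most. The summed level of that list, to which Il7r contributed up to 9.72 on an array, ran from 9.14 to 9.33 in MHC-II-positive and from 8.56 to 8.98 in MHC-II-negative melanophages, and from 8.94 to 9.92 in MHC-II-positive and from 7.62 to 7.85 in MHC-II-negative macrophages. Of the lists for NK cells, B cells, mast cells, neutrophils and eosinophils, keratinocytes and melanocytes 0 genes passed with limma (0, 0, 1, 1, 1 and 0 at an unadjusted p under 0.05). The part of such cells in the values of Gpr132, Gpr65, Gpr35 and Gpr171 was not tested.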

How the data were processed

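Sorted skin melanophages and macrophages were measured on 12 arrays in 4 groups of 3, grouped by the cell type label. The deposited values are log2 intensities that the authors summarised by RMA with oligo, both named in the submitters' processing notes. Of versions, settings and genome build nothing is given in the sources used here. RMA equalises the distributions of the arrays, so a shift shared by most genes would be removed. The table has 35556 probe sets, of which 21789 carry 1 gene symbol in the platform annotation, 1621 several and 12146 none here. The brightest probe set per gene left 19938 genes.

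A mean per group was fitted with limma 3.58.1 (lmFit, eBayes) in R 4.3.3 over all genes and all 12 arrays (8 residual and 2.44 prior degrees of freedom). The 7 comparisons were two-sided, with Benjamini-Hochberg adjustment over all genes and a threshold of 0.05; errors of differences are SE. Precision is limited by how many arrays there were. The receptors, the gene lists and the named genes (all 5 receptors, called list members, and the 3 genes nearest in pattern to receptors spanning at least 1) were chosen with earlier results of these data known. A marker list's summed level is the log2 of the sum of its unlogged values on an array. Filters on dim genes, renormalization, probe set summaries, eBayes settings, array weights, 2-group fits, omission of arrays and a block on runs of title codes were tried. Promoters come from RefSeq.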

Additional observations from a re-analysis of the deposited data

How the results depend on the processing

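The MHC-II difference averaged over cell kind kept its direction for Gpr132, Gpr65, Gpr35 and Gpr171 in every alternative without a block that tested them, 22 for Gpr132, Gpr65 and Gpr171 and 21 for Gpr35, which one filter on dim genes removed. It passed in 22 of them for Gpr132, in 9 for Gpr65, in 13 for Gpr35 and in 13 for Gpr171. The number of the 5 receptors that passed was 4 with all arrays and between 1 and 4 in the fits without 1 array, and 2 without both far macrophage arrays. In melanophages it was 0, between 0 and 2 without 1 array, 1 among genes at 5 or more in at least 3 arrays and 1 with array weights, in both cases Gpr65 (adjusted p = 0.0499 and 0.0471). In macrophages it was 2, between 1 and 3 without 1 array, and 1 in a fit of the macrophage arrays alone. Over all genes the count was 152, between 96 and 158 without 1 array and between 148 and 215 in the other settings; within melanophages it was 42, and 19 to 46 without 1 array, and within macrophages 68, and 47 to 92 without 1 array, with 27 in the fit of the macrophage arrays alone.

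Signs turned only for differences that did not pass. For the averaged MHC-II difference of Gpr183 (0.08) this was -0.011 with another quantile normalization and -0.020 without both far macrophage arrays. Within macrophages it ranged from -0.16 to 0.048 without 1 array. For melanophages minus macrophages, Gpr65 gave 0.047 with array weights, 0.063 without both far arrays and -0.10 to 0.066 without 1 array. In MHC-II-negative cells Gpr35 gave 0.055, 0.057 and -0.085 to 0.099 in the same order, and the Gpr171 interaction gave 0.39, 0.62 and -0.79 to 0.49. The cause was not tested. Codes in the sample titles fall into 3 consecutive runs, each with all 4 groups, and no label says what a run is. Over all genes, 5 of 18 same-run pairs had a correlation of deviations over 0.1 (median -0.03, against 0.06 for other pairs). Of 12 arrays 2 correlated best with their own run. These correlations do not settle the matter for single receptors. In both MHC-II-positive groups Gpr171, Gpr65 and Gpr183 were lowest in run 1 and highest in run 3. Gpr132 and Gpr35 did not share that order, and no receptor had it in both MHC-II-negative groups. With the runs as a replicate block, chosen after seeing the data, 4 receptors passed for the averaged difference (adjusted p = 0.0114 for Gpr132, 0.0371 for Gpr65, 0.0487 for Gpr35 and 0.0175 for Gpr171), 0 in melanophages, 2 in macrophages and 0 in the other comparisons; over all genes 145 passed for the averaged difference, and 6 against 1 between MHC-II-negative melanophages and macrophages. Values near the array medians, as in MHC-II-negative cells for Gpr171, limit how large a difference can be seen.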
